A study of Sicyos edulis with 9 samples.

Results

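The genes described here are 10 unigenes of phenylalanine ammonia-lyase (PAL) from the fruit of chayote (Sicyos edulis), a cucurbit vegetable: SePAL1, SePAL2, SePAL3 and SePAL5 to SePAL11. A unigene is a gene-level entry of an assembly made from the reads, and these 10 were taken from 57814 by their Trinity identifiers, which a list fixed. Their names come from a table of structural genes that the study called differential on these same libraries, so their changes are given as a description and not as independent evidence. SePAL4 and SePAL12 were left out because their values fit a pair of unigenes. Wild-type fruits were taken at harvest (S1, the optimal harvest stage), at day 15 of storage (S2) and at day 30 (S3), with no other treatment, and RNA of each stage was sequenced in 3 libraries described as independent biological replicates. Fruits were grown in the field from a purchased variety, and the number of fruits behind a library is not given. The sources differ on the storage temperature. The measure is FPKM, a read level scaled to transcript length and library size, which is set per length and can be compared between copies. The tissue label could not be checked against marker genes, since the unigenes carry no annotation here.

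PAL opens the phenylpropanoid pathway by removing ammonia from phenylalanine to give cinnamic acid. Cinnamate 4-hydroxylase (C4H) and 4-coumarate-CoA ligase (4CL) then make the activated acid that chalcone synthase draws on for flavonoids, while other branches lead to lignin. In plants PAL is encoded by a small gene family whose copies often differ in tissue, timing and response to wounding, so the copies are given one by one. A lower FPKM in RNA from a whole organ can come from fewer cells of a type or from less RNA per cell, which cannot be told apart here.

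The libraries had summed FPKM of 801066 to 914583 over all unigenes, and the smallest steps between low values put the S1 and S2 libraries at 0.772 to 1.29 times the depth of S1 replicate 2. The steps in S3 were too faint for such an estimate. Read counts per unigene are not given, so values under 1 FPKM rest on an unknown, small number of reads. Within S3, replicate 1 had the highest value for 8 of the 10 PAL unigenes, against 35.9% of the 30201 tested unigenes, so results for S3 are also given without it where they change. The names come from the study's supplementary tables, and a table of structural genes lists the replicate values without identifiers. Names were matched to unigenes through these values, so by that rule its values equal those of the files for all 10 copies. For SePAL5, SePAL7, SePAL8, SePAL9 and SePAL11 they stand under the same stages as in the files, but for SePAL1, SePAL2, SePAL3, SePAL6 and SePAL10 the S1 and S2 values are exchanged. The stages of the files are used below, and results that turn under the other stages are given beside them. A separate table of the study, which pairs names with identifiers, gives stage means of SePAL1, SePAL2 and SePAL3 under the stages of the files and does not hold the other 7 copies. Which of the listings is right was not tested.

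Together the 10 copies had 27.1, 50.1 and 77.4 FPKM in the S1 libraries, 26.9, 70.9 and 78.2 FPKM in S2, and 23.1, 5.30 and 5.92 FPKM in S3. Each S3 library was below each S1 and S2 library, and S1 and S2 overlapped almost fully. The means were 51.5 ± 25.2, 58.6 ± 27.8 and 11.4 ± 10.1 FPKM (SD, n = 3 each), and no p is given for a sum over chosen genes. Of all FPKM in a library, these 10 copies took 0.000659% to 0.00876%. Under the stages of the supplementary table the sums are no longer alike in S1 and S2, with means of 31.9 ± 12.8 FPKM in S1 and 78.2 ± 49.1 FPKM in S2 (SD, n = 3 each), although their ranges still overlap.

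By the stages of the files, the sums of S1 and S2 were made up by different copies. SePAL1 had the highest mean in S1 (21.6 ± 18.3 FPKM), SePAL9 in S2 (27.0 ± 20.6 FPKM) and SePAL8 in S3 (4.14 ± 3.13 FPKM, SD, n = 3 each). Most neighbours in the order of levels overlapped in their library values, namely 8 of 9 neighbouring pairs in S1, 7 of 9 in S2 and 9 of 9 in S3. The ranges were apart between SePAL10 and SePAL5 in S1, between SePAL10 and SePAL8 in S2, and between SePAL2 and SePAL7 in S2. SePAL7 had the lowest mean at all 3 stages.

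**Figure D1:**
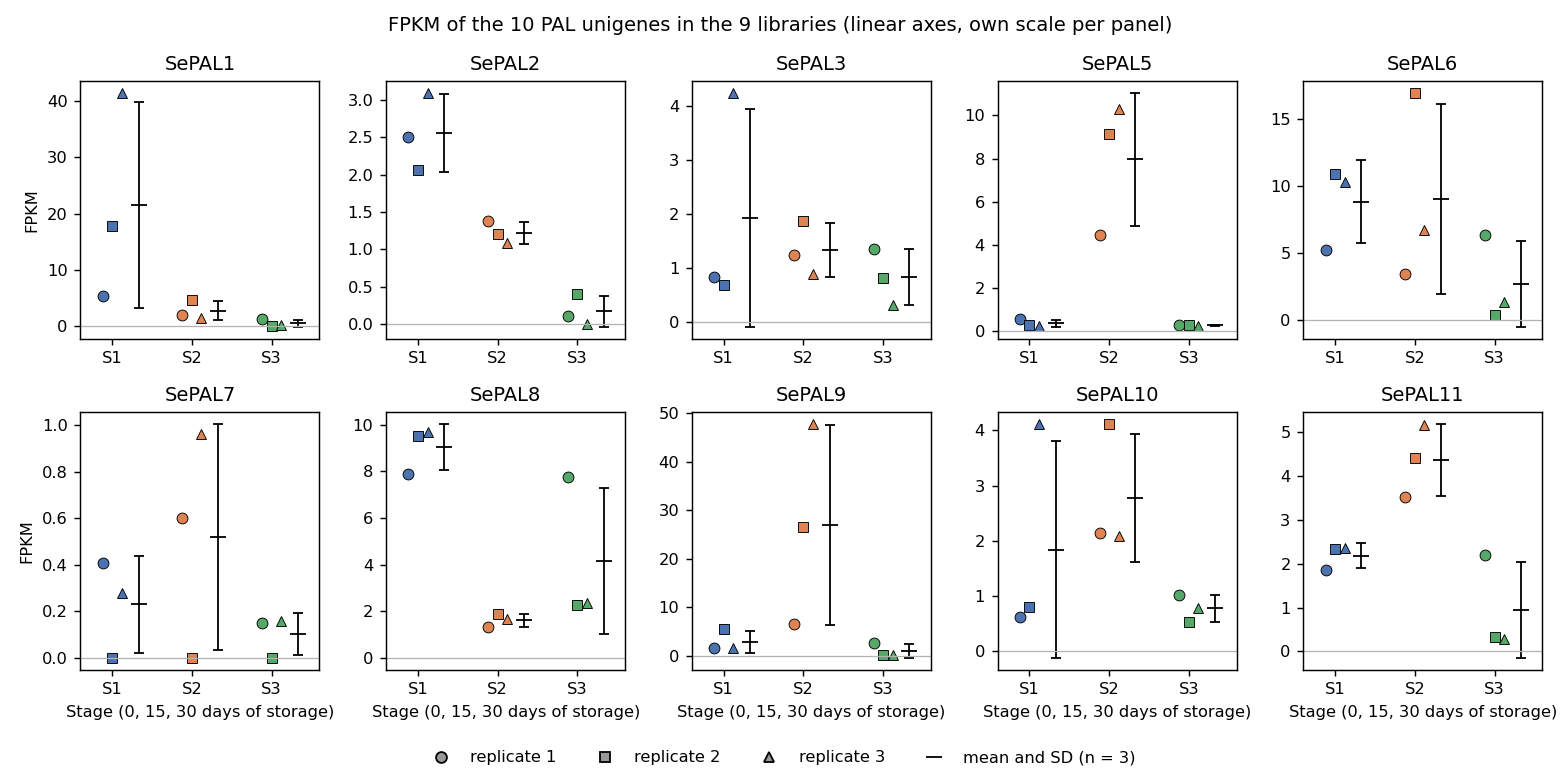
FPKM of each PAL unigene (vertical axis, linear, with its own scale per panel) at S1, S2 and S3 (horizontal axis), with a point per library, its shape giving the replicate number, and a bar for mean and SD of 3 libraries. By the stages of the files SePAL1, SePAL2 and SePAL8 are highest in S1, whereas SePAL5, SePAL9 and SePAL11 stand highest in S2.

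Stages were compared on log2(FPKM + 1) with limma, in the 30201 unigenes that reached 1 FPKM in 3 or more libraries. A fold is a difference on that scale, later stage minus earlier, and understates the change of low genes. Calls were made at an adjusted p (Benjamini-Hochberg) below 0.05. Of the 10 copies, 9 passed the filter and SePAL7 did not. SePAL5 passed through its S2 libraries alone, so its difference between S2 and the other stages was in part a condition of its being tested.

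SePAL1 (TRINITY_DN1395_c0_g2) had the highest mean of the 10 copies at harvest by the stages of the files, and was near 0 at the end of storage. It had 5.48, 17.9 and 41.5 FPKM in S1, 2.12, 4.71 and 1.53 FPKM in S2, and 1.24, 0.12 and 0.24 FPKM in S3. No library of a later stage reached any library of an earlier one, although the S1 libraries themselves differed by 7.57 times. In S2 it fell by 2.28 on the log2 scale relative to S1 (limma, standard error 0.64, adjusted p = 0.042). This call was lost in 13 of 19 alternative settings, in which the adjusted p ranged over 0.00648 to 0.134. It held without S1 replicate 1 and without S3 replicate 1, and it was lost without any other single library (adjusted p 0.0611 to 0.134). The S3 vs. S2 fold of -1.29 was not called (limma, adjusted p = 0.14, 95% interval -2.76 to 0.18). That fold passed in 4 of 19 alternatives, among them without S1 replicate 1 (limma, adjusted p = 0.043). In S3 the SePAL1 mean of 0.533 FPKM was 40.5 times below the S1 mean of 21.6 FPKM. SePAL1 fell by 3.57 in S3 relative to S1 (limma, standard error 0.64, adjusted p = 0.0021), a call that held in 19 of 19 alternatives by the stages of the files. Under the stages of the supplementary table the S2 vs. S1 fold is 2.28, the S3 vs. S2 fold is -3.57 (limma, adjusted p = 0.0022) and the S3 vs. S1 fold is -1.29 (limma, adjusted p = 0.13).

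SePAL2 (TRINITY_DN13591_c0_g1) was a low copy that was lower again at each later stage. Its libraries had 2.51, 2.06 and 3.10 FPKM in S1, 1.38, 1.20 and 1.09 FPKM in S2, and 0.10, 0.40 and 0 FPKM in S3. The 3 stages did not overlap, and S3 replicate 3 was listed at 0. SePAL2 fell by 0.94 in S3 relative to S2 (limma, standard error 0.22, adjusted p = 0.0070) and by 1.61 in S3 relative to S1 (limma, standard error 0.22, adjusted p = 0.00047), and both calls held in 18 of 18 alternatives. The S2 vs. S1 fold of -0.67 was not called (limma, adjusted p = 0.067, 95% interval -1.16 to -0.18), and it is 0.67 under the stages of the supplementary table. The later falls keep their direction and their call there, with folds of -1.61 in S3 vs. S2 and -0.94 in S3 vs. S1.

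SePAL9 (TRINITY_DN5659_c0_g1) had the highest mean of the 10 copies over the 9 libraries, and it owed this to S2. It had 1.72, 5.55 and 1.56 FPKM in S1, 6.62, 26.6 and 47.8 FPKM in S2, and 2.60, 0.19 and 0.16 FPKM in S3. Every S2 library was above every S1 and S3 library, while S3 and S1 overlapped through S3 replicate 1. SePAL9 rose by 2.60 in S2 relative to S1 (limma, standard error 0.74, adjusted p = 0.042), but this call was lost in 12 of 18 alternatives (adjusted p 0.0196 to 0.136). It held without S1 replicate 2, S2 replicate 1 or S3 replicate 1, and the other 6 libraries each ended it when left out (adjusted p 0.0566 to 0.136). It fell by 3.67 in S3 relative to S2 (limma, standard error 0.74, adjusted p = 0.0037), and this call held in 18 of 18. The S3 vs. S1 fold of -1.07 was not called (limma, adjusted p = 0.27, 95% interval -2.75 to 0.61).

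SePAL5 (TRINITY_DN3127_c2_g2) was measured almost solely in S2. Its values were 0.57, 0.29 and 0.26 FPKM in S1, 4.47, 9.13 and 10.3 FPKM in S2, and 0.31, 0.27 and 0.23 FPKM in S3. The S2 mean of 7.97 ± 3.08 FPKM was 21.3 times the S1 mean of 0.373 ± 0.171 FPKM (SD, n = 3 each), and S1 and S3 overlapped. SePAL5 rose by 2.65 in S2 relative to S1 (limma, standard error 0.28, adjusted p = 0.00096) and fell by 2.75 in S3 relative to S2 (limma, standard error 0.28, adjusted p = 0.00013). Both calls held in 18 of 18 alternatives, and the supplementary table lists SePAL5 under the same stages as the files. Since SePAL5 passed the filter through its S2 libraries alone, these calls are given as a description and not as support. For S3 vs. S1 the fold was -0.11 (limma, adjusted p = 0.79, 95% interval -0.76 to 0.54).

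SePAL11 (TRINITY_DN3049_c0_g3) had the same order of stages in a narrower span. Its libraries had 1.85, 2.34 and 2.36 FPKM in S1, 3.52, 4.41 and 5.17 FPKM in S2, and 2.21, 0.33 and 0.29 FPKM in S3. All S2 libraries were above those of S1 and S3, and S3 replicate 1 lay within the S1 range. Its S2 vs. S1 fold of 0.75 was not called (limma, adjusted p = 0.19, 95% interval -0.05 to 1.54). It fell by 1.59 in S3 relative to S2 (limma, standard error 0.35, adjusted p = 0.0056), a call that held in 18 of 18 alternatives. The S3 vs. S1 fold of -0.85 was not called (limma, adjusted p = 0.076). Without S3 replicate 1, that fold was -1.28 (adjusted p = 0.0025) and the S2 vs. S1 fold passed the threshold as well (adjusted p = 0.032).

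SePAL8 (TRINITY_DN12096_c0_g3) was lowest in S2, the stage at which SePAL5 and SePAL9 stood highest. It had 7.89, 9.54 and 9.69 FPKM in S1, 1.32, 1.88 and 1.66 FPKM in S2, and 7.76, 2.29 and 2.38 FPKM in S3. The S2 libraries lay below all others, and in S3 replicate 1 was close to the S1 libraries while the other two were near S2. SePAL8 fell by 1.94 in S2 relative to S1 (limma, standard error 0.35, adjusted p = 0.0076), and this call held in 19 of 19 alternatives. The S3 vs. S2 fold of 0.82 was not called (limma, adjusted p = 0.090, 95% interval 0.01 to 1.63), and it was 0.35 without S3 replicate 1 (limma, adjusted p = 0.15). SePAL8 was lower in S3 than in S1 by a fold of -1.12 (limma, standard error 0.35, adjusted p = 0.029), and this was lost in 6 of 19 alternatives (adjusted p 0.000489 to 0.1). Without S1 replicate 2 or S1 replicate 3 the adjusted p was 0.078 or 0.079, and without S3 replicate 2 or S3 replicate 3 it was 0.10 or 0.093. Without S3 replicate 1 the S3 vs. S1 fold was -1.59 (limma, adjusted p = 0.00049). The table gives SePAL8 under the same stages as the files.

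SePAL6 (TRINITY_DN5659_c0_g4) was among the 3 most abundant copies in all stages and was called in none of the comparisons with all libraries. It had 5.25, 10.9 and 10.3 FPKM in S1, 3.45, 17.0 and 6.70 FPKM in S2, and 6.35, 0.36 and 1.37 FPKM in S3. The values of S2 surrounded those of S1, and S3 replicate 1 lay within both ranges. Its S2 vs. S1 fold was -0.15 (limma, adjusted p = 0.92), with a 95% interval of -1.70 to 1.40 that leaves room for a change of either direction. Without S3 replicate 1, SePAL6 had folds of -2.24 in S3 vs. S2 (limma, adjusted p = 0.019) and -2.40 in S3 vs. S1 (limma, adjusted p = 0.014), against -1.57 (adjusted p = 0.091) and -1.72 (adjusted p = 0.067) with all libraries.

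SePAL3 (TRINITY_DN5659_c0_g2) and SePAL10 (TRINITY_DN5659_c0_g3) were low copies. SePAL3 had 0.84, 0.69 and 4.25 FPKM in S1, 1.24, 1.88 and 0.90 FPKM in S2, and 1.36, 0.82 and 0.32 FPKM in S3. SePAL10 had 0.61, 0.79 and 4.11 FPKM in S1, 2.14, 4.12 and 2.08 FPKM in S2, and 1.01, 0.52 and 0.77 FPKM in S3. In both, S1 replicate 3 was several times above the other S1 libraries, and in both the S1 range covered most of the other values. SePAL10 over SePAL3 was 0.726, 1.14 and 0.967 in the S1 libraries, 1.73, 2.19 and 2.31 in those of S2, and 0.743, 0.634 and 2.41 in those of S3. Neither was called in any comparison. Without S1 replicate 3, SePAL10 had a fold of 1.11 in S2 vs. S1 (limma, adjusted p = 0.044) and of -1.06 in S3 vs. S2 (limma, adjusted p = 0.013), whereas SePAL3 stayed uncalled. The PAL pair in the primer list of the study, named SePAL 2 there, carries locus FSG0199650.1, which the identifier table gives to SePAL3 and not to SePAL2. The pair is shown because its name and its locus point to different copies, and it was not aligned to any unigene. The 5 bases at the 3′ end, where extension starts, are in capitals.
forward primer: gggcagactctcactATTTC
reverse primer: cctccatgtatcgctttATTTC

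SePAL7 (TRINITY_DN12821_c1_g1) was at the edge of detection. Its values were 0.41, 0 and 0.28 FPKM in S1, 0.60, 0 and 0.96 FPKM in S2, and 0.15, 0 and 0.16 FPKM in S3. Replicate 2 of each stage was listed at 0, and no library reached 1 FPKM. It was not tested.

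In S2 vs. S1, 4 of the 9 tested copies were called, with SePAL5 and SePAL9 higher and SePAL1 and SePAL8 lower, against 17.9% of all tested unigenes called (7.24% higher and 10.7% lower). In S3 vs. S2, SePAL2, SePAL5, SePAL9 and SePAL11 were lower and none was higher, so 4 of 9 were called in a comparison that called 46.5% of all unigenes (23.3% higher and 23.2% lower). In S3 vs. S1, SePAL1, SePAL2 and SePAL8 were lower and none was higher, so 3 of 9 were called where 47.5% of all were (22.1% higher and 25.4% lower). At an unadjusted limma p under 0.05, SePAL8 was the 1 copy higher in S3 vs. S2, and still 0 were higher in S3 vs. S1. Since the study had listed these copies as differential on the same libraries, nothing is read from their share of calls against the background. The fold was below 0 for 8 of 9 copies in S3 vs. S2, where SePAL8 is the exception, and for 9 of 9 in S3 vs. S1. The median fold of the copies was -0.14, -1.29 and -1.07 in the 3 comparisons, and that of all tested unigenes was -0.03, 0.00 and -0.05. Library ranges were apart for 6, 7 and 3 of 9 copies, against 38.3%, 59.5% and 52.9% of all tested unigenes. The comparisons share libraries, since S2 enters the first and the second and S1 and S3 enter 2 comparisons each, so they are not independent.

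**Figure D2:**
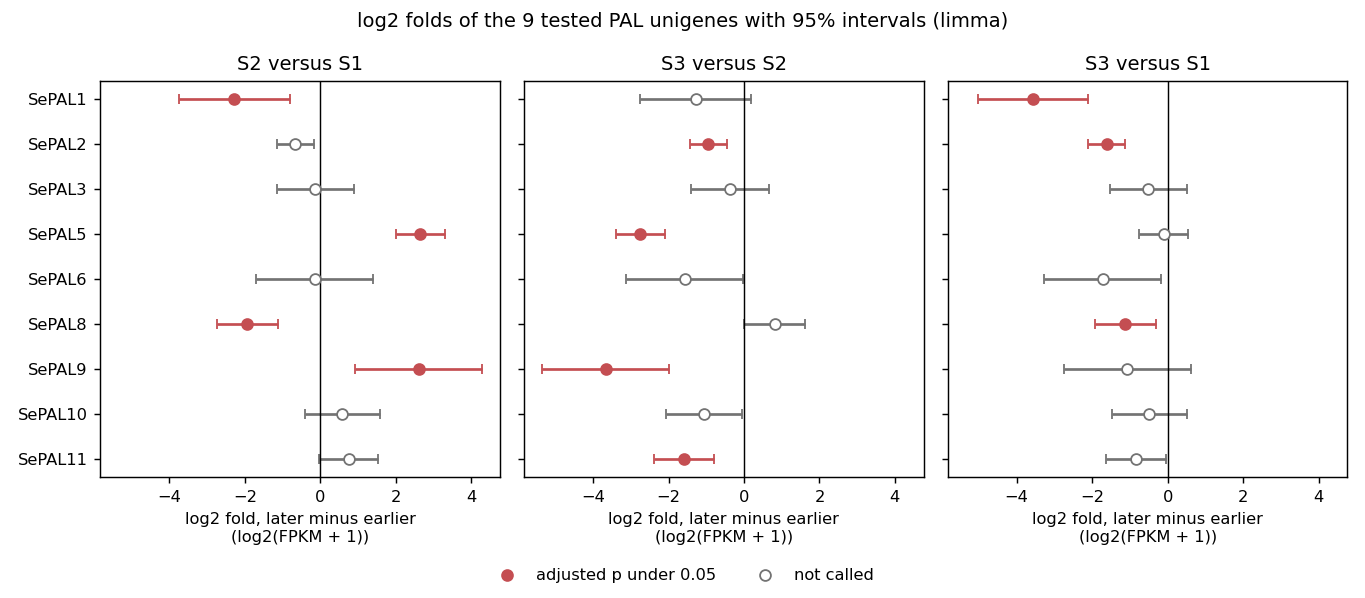
Folds of the 9 tested PAL unigenes on the log2(FPKM + 1) scale, later stage minus earlier (horizontal axis), with 95% intervals from limma in 3 comparisons. Filled red points passed an adjusted p of 0.05. In S2 vs. S1 the called copies lie on both sides of 0, and in both comparisons with S3 they lie below 0.

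Of the 4 calls in S2 vs. S1, those of SePAL5 and SePAL8 held in every alternative in which the copy was tested. For SePAL5 this is no support for the rise, since it passed the filter through its S2 libraries alone. The count was 2 without S2 replicate 2, without S2 replicate 3, without S3 replicate 2 and without S3 replicate 3, and 5 without S3 replicate 1. In S3 vs. S1 the count was 5 without S3 replicate 1. Under the stages of the supplementary table, 3 copies were higher and 1 lower in S2 vs. S1, 5 were lower in S3 vs. S2 and 2 were lower in S3 vs. S1.

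The share of each copy in the summed PAL FPKM changed hands between stages. SePAL1 held 20.2%, 35.7% and 53.6% in the S1 libraries, 7.89%, 6.65% and 1.96% in S2, and 5.37%, 2.26% and 4.05% in S3. The lowest S1 library was above every library of S2 and S3. SePAL9 held 6.34%, 11.1% and 2.01% in S1, 24.6%, 37.5% and 61.1% in S2, and 11.3%, 3.58% and 2.70% in S3, so each S2 library was above all others. SePAL8 held 29.1%, 19.1% and 12.5% in S1, 4.91%, 2.65% and 2.12% in S2, and 33.6%, 43.2% and 40.2% in S3. Among the 10 copies it was thus first in each S3 library and in S1 replicate 1, while SePAL1 was first in the other S1 libraries and SePAL9 in each S2 library. The further PAL entries SePAL13 and SePAL15 were above SePAL8 in each S3 library.

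SePAL6 averaged 18.2 ± 4.37% (SD, n = 3) in the S1 libraries, 15.1 ± 7.94% in those of S2 and 19.1 ± 10.9% in those of S3, and its single libraries ran as far apart as 6.79% and 27.5% within S3. SePAL5 held 14.2 ± 2.09% in S2, with a narrow range although its FPKM differed by over 2 times between those libraries, and 1.01 ± 0.957% in S1 and 3.44 ± 1.91% in S3. SePAL3 and SePAL10 averaged 8.92% and 9.06% in S3, where the sum was small, and at most 5.48% in the other stages. With the stages of the supplementary table, the first copy was SePAL8 in S1 replicates 1 and 3 and SePAL6 in S1 replicate 2, it was still SePAL9 in all S2 libraries and SePAL8 in all S3 libraries, and SePAL1 held 8.40% in S1 and 24.6% in S2. With those stages SePAL6 averaged 25.6% in S1 and 13.2% in S2, and SePAL10 averaged 8.70% in S1, near its S3 share.

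**Figure D3:**
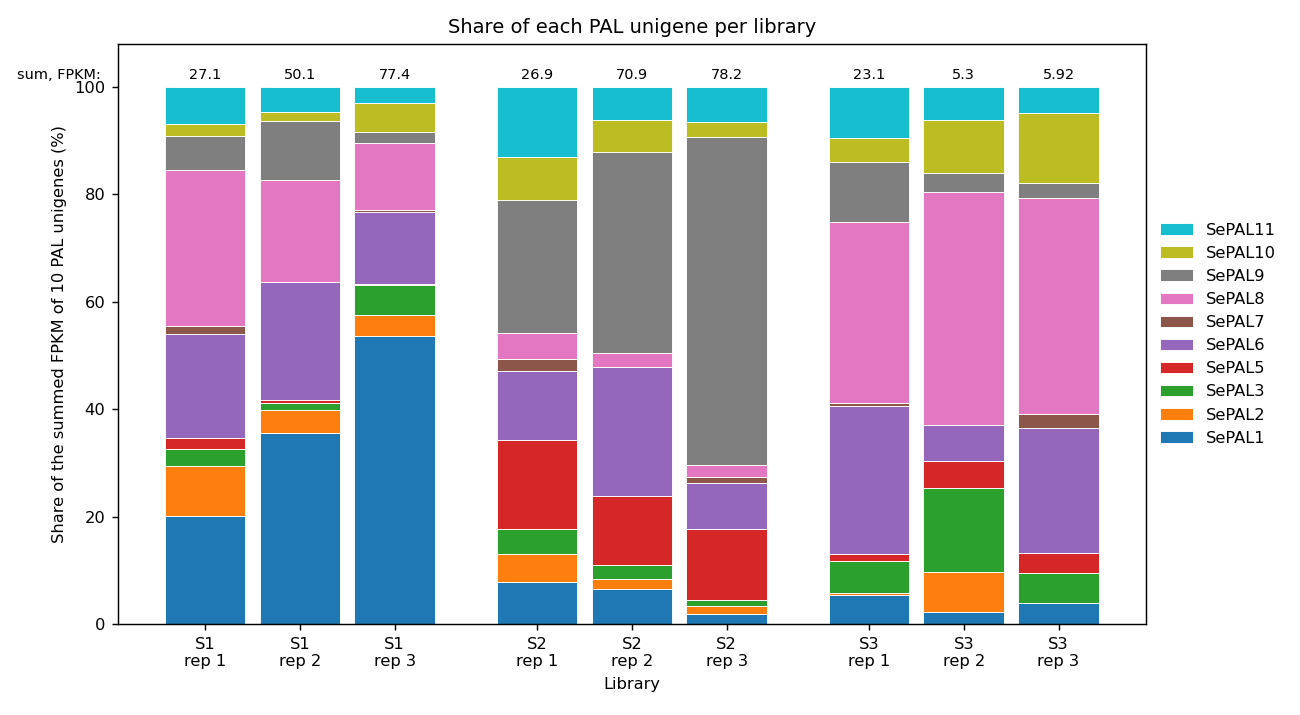
Share of each copy in the summed FPKM of the 10 PAL unigenes (vertical axis, %) in each of the 9 libraries (horizontal axis), with the sum in FPKM above each bar. By the stages of the files SePAL1 (blue, at the foot) is widest in S1, SePAL9 (grey) in S2 and SePAL8 (pink) in S3, where the sums of replicates 2 and 3 are 5.30 and 5.92 FPKM.

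Ratios of copies were taken within single libraries, where depth is shared. By the stages of the files SePAL9 over SePAL1 was 0.314, 0.311 and 0.0376 in the S1 libraries and 3.12, 5.64 and 31.2 in S2, so the order of the copies was turned in every library of either stage. In S3 the ratio was 2.10, 1.58 and 0.667, between 2 low values. With the stages of the supplementary table, SePAL9 over SePAL1 was 0.811, 1.18 and 1.02 in S1 and 1.21, 1.49 and 1.15 in S2, so this turn rests on the listing used. SePAL5 over SePAL8 was 0.0722, 0.0304 and 0.0268 in the S1 libraries, 3.39, 4.86 and 6.20 in those of S2, and 0.0399, 0.118 and 0.0966 in those of S3. For SePAL5 and SePAL8 the files and the supplementary table give the same stages, so these ratios are the same under either listing. The pairs set copies of opposite course against each other, so their ratios restate the values per copy and add no support. SePAL5 also passed the filter through its S2 libraries alone.

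SePAL3, SePAL6, SePAL9 and SePAL10 belong to a single Trinity component, TRINITY_DN5659_c0. Unigenes of a component share stretches of sequence, so reads may have been divided between them, and the split of their values is uncertain. Summed, the component had 8.42, 18.0 and 20.3 FPKM in S1, 13.5, 49.5 and 57.5 FPKM in S2, and 11.3, 1.89 and 2.62 FPKM in S3. S2 replicate 1 lay within the S1 range, and S3 replicates 2 and 3 lay below all libraries of the other stages. The sum fell by 2.79 in S3 relative to S2 (limma, standard error 0.68, adjusted p = 0.0097), while its S2 vs. S1 fold of 1.16 was not called (limma, adjusted p = 0.30, 95% interval -0.40 to 2.72). Of the summed PAL FPKM, the component made up 26.2% to 35.9% across the S1 libraries, 50.1% to 73.5% across those of S2 and 35.7% to 49.0% across those of S3. With the stages of the supplementary table it made up 37.5% to 61.2% in S1 and 42.7% to 52.4% in S2, so the ranges overlap. The other 6 copies lie in 6 separate components. Of these, SePAL1, SePAL8 and SePAL11 share their component with PAL unigenes outside the 10. The split of their values is uncertain in the same way.

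Likeness between copies was measured as the root mean square difference over the 9 libraries of log2(FPKM + 1), centred on its mean, where 0 means the same course. It is a description, since the libraries are shared by all pairs. Among 45 pairs the median was 1.13. The closest were SePAL3 and SePAL10 (0.394), which share a component. The farthest were SePAL1 and SePAL9 (2.25), SePAL8 and SePAL9 (2.24) and SePAL1 and SePAL5 (2.23). SePAL1 and SePAL9 thus ran against each other in S1 and S2 by the stages of the files. Under the stages of the supplementary table, which exchange S1 and S2 for SePAL1 but not for SePAL9, the same 2 copies are the closest of the 45 pairs at 0.268, and SePAL1 and SePAL5 stand at 0.744. SePAL8 and SePAL9 remain at 2.24, since neither is exchanged.

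**Figure D4:**
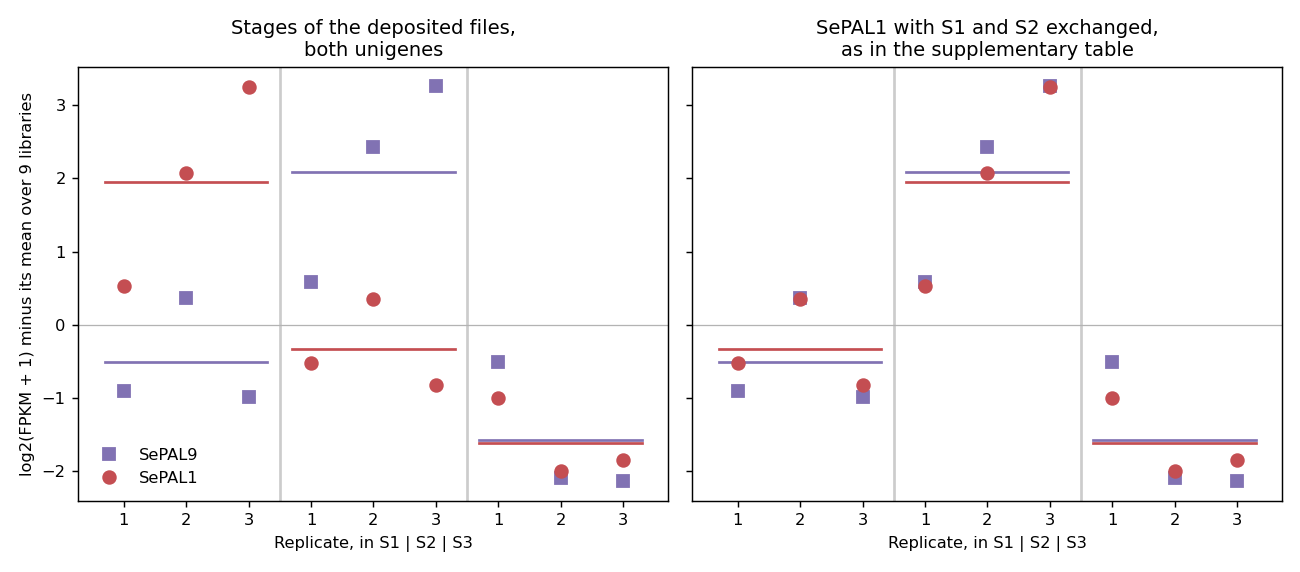
log2(FPKM + 1) of SePAL9 (squares) and SePAL1 (circles), each minus its mean over the 9 libraries (vertical axis), by replicate within S1, S2 and S3 (horizontal axis), with lines at stage means. With the stages of the files (left) the copies run apart, at a root mean square difference of 2.25. With S1 and S2 exchanged for SePAL1, as the supplementary table lists it (right), the points nearly coincide, at 0.268.

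By the same measure over 9 libraries, the named unigenes closest to SePAL9 were SeUGT28, a UDP-glycosyltransferase (0.767), the transcription factor unigene TRINITY_DN21136_c0_g1 (0.805) and SePAL5 (0.824). SeUGT28 averaged 2.74, 27.5 and 5.31 FPKM in S1, S2 and S3, and TRINITY_DN21136_c0_g1 averaged 6.39 FPKM in S2 and was listed at 0 in all S1 and S3 libraries. Among unigenes with no name, TRINITY_DN28251_c0_g1 (0.573) and TRINITY_DN5688_c0_g1 (0.679) were closest. For SePAL8, the closest was SePAL16 (0.195), a further PAL unigene of the same component, followed among named unigenes by the transcription factors TRINITY_DN5001_c0_g1 (0.433) and TRINITY_DN17383_c0_g2 (0.455). All of these had their lowest mean in S2, as SePAL8 did, which follows largely from their choice by likeness to it.

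The replicates of the more abundant copies spread widely. For SePAL1, SePAL6, SePAL8 and SePAL9, whose mean over all libraries lay in the class of 3 to 15 FPKM, the median SD of log2(FPKM + 1) within a stage reached 0.64 for S1, 0.81 for S2 and 0.87 for S3. All 8482 tested unigenes of that class had medians of 0.28, 0.14 and 0.23. In S2 and in S3, 3 of these 4 copies were above the 90th percentile of the class, and in S1 only SePAL1 was. SePAL8 was the exception in S1 and S2, with an SD of 0.15 and 0.16, and its spread of 0.80 in S3 came with S3 replicate 1. SePAL9 spread 7.22 times between its lowest and highest S2 library, and SePAL6 spread 17.6 times in S3. The 5 tested copies with a mean under 3 FPKM had medians of 0.21, 0.30 and 0.25, against 0.40, 0.31 and 0.35 in 11695 unigenes, and none was above the 90th percentile. The high replicate was not always the same. S1 replicate 3 was highest in S1 for 6 of the 10 copies, S2 replicate 2 in S2 for 5 and S3 replicate 1 in S3 for 8, while 32.7%, 34.2% and 35.9% of all tested unigenes were highest there.

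**Figure D5:**
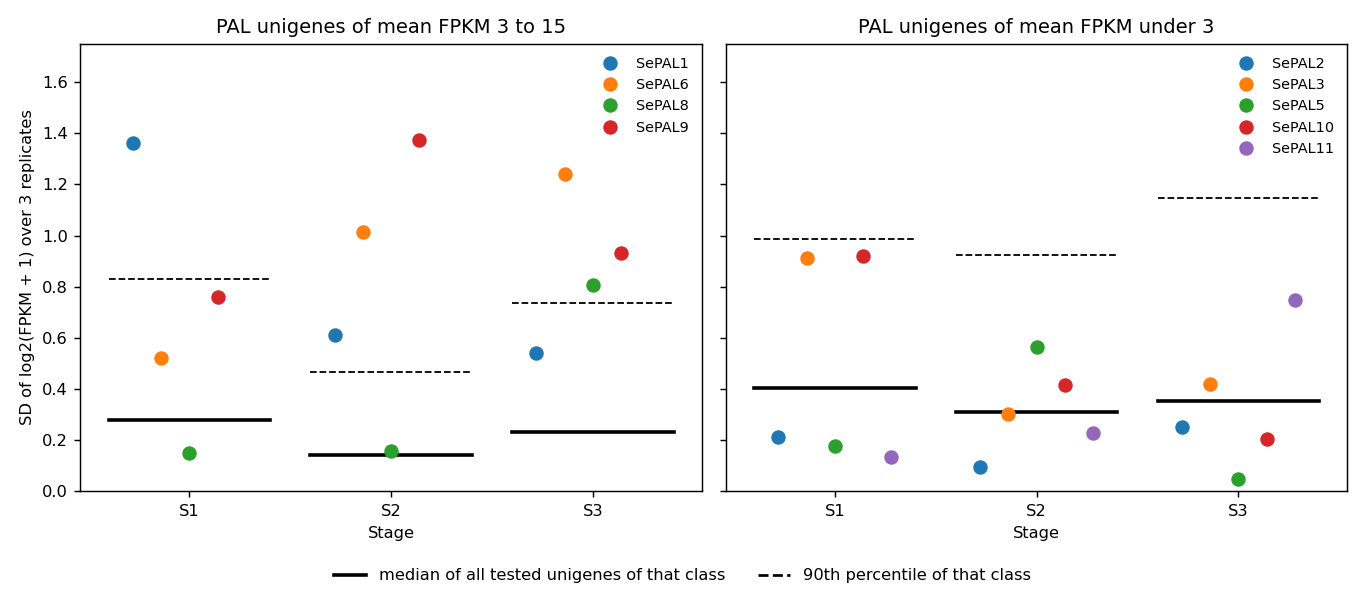
SD of log2(FPKM + 1) over the 3 replicates of a stage (vertical axis) at S1, S2 and S3 (horizontal axis) for PAL unigenes with a mean of 3 to 15 FPKM (left) and under 3 FPKM (right), with the median (thick line) and the 90th percentile (dashed line) of all tested unigenes of that class. SePAL9 and SePAL6 stand above the dashed line in S2 and S3, and all copies on the right stand below it.

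The supplementary table holds 16 PAL entries in all, and some of the others were more abundant than the 10 copies. All 16 unigenes matched to these entries summed to means of 150.0, 162.1 and 49.5 FPKM in S1, S2 and S3. By their values, SePAL4 and SePAL12 fit both TRINITY_DN1395_c0_g1 and TRINITY_DN3049_c0_g2. The separate table that pairs names with identifiers gives SePAL4 as TRINITY_DN1395_c0_g1. The first has 30.5, 58.8 and 47.1 FPKM in S1 and 17.3, 20.0 and 16.6 FPKM in S2, the second has these same values with S1 and S2 exchanged, and both have 18.4, 3.30 and 5.85 FPKM in S3. Among unigenes with at least 6 values above 0, this is the only pair that holds the same 9 values under different stages. Sums that include both therefore gain the same amount in S1 as in S2. Whether the pair is a record listed more than once was not tested. They belong to the components of SePAL1 and SePAL11. SePAL16 (TRINITY_DN12096_c0_g2), beside SePAL8 in its component, had 8.19, 7.54 and 6.80 FPKM in S1, 1.01, 1.07 and 0.96 FPKM in S2, and 4.45, 1.41 and 1.77 FPKM in S3, and it fell by 2.08 in S2 relative to S1 (limma, adjusted p = 0.0026). SePAL13 (TRINITY_DN3049_c0_g4), beside SePAL11, averaged 8.76, 19.3 and 5.80 FPKM in S1, S2 and S3 and fell by 1.65 in S3 relative to S2 (limma, adjusted p = 0.0036). SePAL15 (TRINITY_DN1395_c2_g1) had 18.1, 17.9 and 18.5 FPKM in S1, 22.9, 22.0 and 11.5 FPKM in S2, and 16.9, 10.9 and 5.38 FPKM in S3 and was not called, and SePAL14 (TRINITY_DN7390_c0_g2) had a mean under 1 FPKM in each stage and was not tested.

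For C4H, the next enzyme, the unigene SeC4H1 (TRINITY_DN2847_c0_g1) had a higher mean at each stage than any of the 10 PAL copies. It had 106.8, 220.6 and 287.4 FPKM in S1, 81.2, 58.1 and 30.2 FPKM in S2, and 37.5, 31.6 and 34.5 FPKM in S3. By the stages of the files SeC4H1 fell by 1.84 in S2 relative to S1 (limma, standard error 0.42, adjusted p = 0.019). That was the direction of SePAL1 and SePAL8 and not of SePAL5 and SePAL9. Of 5 tested 4CL unigenes, Se4CL1, Se4CL2 and Se4CL3 were lower in S2 than in S1, with folds of -2.28, -1.29 and -1.82 (limma, adjusted p = 0.0090, 0.0087 and 0.0038), and Se4CL4 and Se4CL16 were not called, with folds of 0.58 and 0.31. In S3 vs. S1 the same 3 were lower and Se4CL4 and Se4CL16 were higher, with folds of 1.12 and 1.21 (limma, adjusted p = 0.0074 and 0.011). Over the 23 tested of 24 structural genes other than PAL, 3 were higher and 11 lower in S2 vs. S1, 3 higher and 7 lower in S3 vs. S2, and 8 higher and 14 lower in S3 vs. S1. Of all tested unigenes, 17.9% were called in S2 vs. S1, 46.5% in S3 vs. S2 and 47.5% in S3 vs. S1. The study chose these structural genes on these samples, so their counts cannot stand as independent evidence. The table of structural genes gives 11 of the 24 under the same stages as the files. SeC4H1, Se4CL1, Se4CL2 and Se4CL3 are among the other 13. Se4CL1 and Se4CL2 stand there with S1 and S2 exchanged, so their falls in S2 vs. S1 become rises under that listing. SeC4H1 and Se4CL3 stand there in another order of the stages, and their folds under it were not tested.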

How the data were processed

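The authors deposited 1 table per library with FPKM for 57814 unigenes, with 2 decimals, from reads filtered with fastp. Neither mapper nor counting tool is given in the sources used here, nor is the scaling. In 1 file, 8 unnamed columns held values in 1 row and were not used. PAL names were matched to unigenes through their 9 replicate values. Members and lists were chosen with earlier results of these data known. FPKM are no counts, so limma 3.58.1 (R 4.3.3; lmFit, and eBayes with trend) was fitted on log2(FPKM + 1) to all 9 libraries, after a filter of 1 FPKM in at least 3 libraries (30201 unigenes), with Benjamini-Hochberg adjustment over all of them. With 3 libraries against 3, an exact permutation test cannot go below p = 0.10, so none was used for single copies. Sums, shares and spreads were computed with Python 3.11.15, pandas 2.3.3 and numpy 2.4.6 and are given without a test. The alternatives were other scalings, filters, pseudocounts and fits, a block for the replicate number, leaving out each library, the stages of the supplementary table, and unigenes of a component summed. All 10 copies are named, and the other PAL entries, C4H and 4CL by a fixed list. The study's statistics name a T-test in general and no tool for differential expression.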

Additional observations from a re-analysis of the deposited data

How the results depend on the processing

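The count of called PAL unigenes in S2 vs. S1 was 4 and became 2 with no filter beyond a value above 0, with a pseudocount of 0.1 or 0.01, with the replicate number as a block and at an adjusted p under 0.01. It ranged over 2 to 5 when 1 library was left out. In S3 vs. S2 the count of 4 became 1 with a filter at 5 FPKM, which leaves 4 copies to test. It became 5 with a pseudocount of 0.1 or 0.01, and 6 with only the 6 libraries of the 2 stages fitted. With 1 library left out it ranged over 4 to 5. In S3 vs. S1 the count of 3 ranged over 2 to 5. Under the replicate block, counts were 2, 4 and 2, and SePAL1, SePAL9 (S2 vs. S1) and SePAL8 (S3 vs. S1) lost their calls (limma, adjusted p = 0.083, 0.087 and 0.053). Same-numbered libraries of different stages had correlations of their deviations of -0.138 to 0.0423 across unigenes. Differently numbered ones had -0.104 to 0.119. No pairing by number was seen, but 3 libraries per stage cannot exclude one.

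Under the stages of the supplementary table the S2 vs. S1 folds of SePAL1, SePAL2, SePAL3, SePAL6 and SePAL10 turned to 2.28, 0.67, 0.14, 0.15 and -0.58. Quantile normalization turned the S3 vs. S1 fold of SePAL5 to 0.28. With 1 library left out, the uncalled folds of SePAL3 ranged over -0.43 to 0.39 in S2 vs. S1 and -0.80 to 0.016 in S3 vs. S1, those of SePAL6 over -0.69 to 0.31 in S2 vs. S1, and those of SePAL10 over -0.78 to 0.048 in S3 vs. S1. Of 513 folds under alternatives, 455 kept direction and call, 12 turned, 32 lost and 14 gained a call.

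The summed PAL FPKM of S1, S2 and S3 was 115, 122 and 29.8 with both unigenes of SePAL4 and SePAL12 added, and 86.5, 98.7 and 31.1 with SePAL13 to SePAL16 added. In the first addition both unigenes hold the same values with S1 and S2 exchanged, so these stages gain the same amount. The shares of SePAL1 in S1, SePAL9 in S2 and SePAL8 in S3 were 16.9%, 20.1% and 15.2% with the first addition. With the second, SePAL8 had 12.95% in S3, where SePAL15 had 37.2% and SePAL13 had 19.3%. SePAL1 had 8.40% in S1 under the stages of the supplementary table. Of all unigenes called in S2 vs. S1, 40.4% were higher, and 51.1% after quantile normalization, which moved no PAL count. The study states total reads per library but no reads per unigene are given, so the counting error of copies under 1 FPKM is unknown.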
